A study of Mus musculus with 36 samples.

Results

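The genes described here encode the mitochondrial respiratory chain and the ATP synthase, and were chosen by name: every gene on the array whose symbol begins with Nduf, Cox4 to Cox8, Uqcr or Atp5, or is one of the Sdh subunits. The rule took 77 of the 18138 genes on the array, read by 95 of its 25697 probes. RNA came from the intact femur (D0) and, after a closed fracture of the femoral shaft, from the callus of 8-week-old male mice on 5 days (D3, D7, D14, D21 and D28), D0 being intact bone by the methods although its label also names callus. The groups were RAG1-/- mice, homozygous knockouts of recombination activating gene 1 on the C57BL/6N background that lack mature T and B cells, and wild-type (WT) C57BL/6N mice. Each of the 12 groups was 1 pool of RNA from 5 mice, run on 3 Illumina MouseRef-8 v2 BeadChip arrays, so the 36 arrays measured 12 pools. The knockout is present in every cell of the mouse, and the methods give separate sources for the mice of each genotype, so genotype and source cannot be told apart.

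The respiratory chain sits in the inner mitochondrial membrane. Complex I takes electrons from NADH and complex II takes them from succinate, complex III passes them to cytochrome c, and complex IV hands them to oxygen. The proton gradient built up on the way drives the ATP synthase, complex V. Most subunits are encoded in the nucleus, and complex IV has several in a ubiquitous form and a form of heart and skeletal muscle. Muscle is rich in mitochondria, mature red blood cells have none, and osteoclasts are rich in them.

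Values are log2 intensities. A probe was tested when its mean over the 36 arrays lay above 4.72, the median of all probes, and values around it are called near the floor, where no lower level can be read. Of the 77 genes, 69 passed: 32 of 35 of complex I, 3 of 3 of complex II, 4 of 6 of complex III, 15 of 17 of complex IV and 15 of 16 of complex V. Ndufab1, Ndufb11, Ndufs1, Uqcrfs1, Uqcrq, Cox7b2, Cox8c and Atp5k did not pass. The member probe just below the limit, of Sdhb, averaged 4.717, and the probe just above it, of Atp5o, averaged 4.81. The symbols are those of the array: Atp5f1 is now Atp5pb and Uqcr is now Uqcr11. Of the 69, 64 are structural subunits. The others are Ndufaf1, an assembly factor of complex I, Cox7a2l, which joins complexes into supercomplexes, Atp5s and Atp5sl, and Cox4nb, a neighbour of Cox4i1 that encodes a subunit of the membrane insertion complex EMC and no part of the chain. Ndufa4 carries a complex I symbol, under which it is counted here, but belongs to complex IV.

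A gene was called at an adjusted p under 0.05 in a limma fit over all 36 arrays and 10291 genes. Within a day such a p compares 1 pool with 1 pool against the spread between technical arrays, not between mice. In bulk samples, fewer cells of a type and less RNA per cell cannot be told apart. Arrays of a group correlated at 0.984 to 0.996 in RAG1-/- and at 0.894 to 0.996 in WT, and 0 of 18 RAG1-/- arrays, against 13 of 18 WT arrays, were closer to an array of another group than to one of their own. The arrays labelled WT D14 went against their label in part. Replicates 2 and 3 correlated with each other at 0.996, with the RAG1-/- D21 arrays at 0.980 to 0.981 and with the RAG1-/- D14 arrays at 0.971 to 0.976, but with their own replicate 1 at 0.934 to 0.937, and replicate 1 was nearest to a WT D21 array (0.963). The 7 erythroid markers averaged 7.27 and 7.19 in replicates 2 and 3, within the 6.01 to 7.43 of the RAG1-/- arrays, and 9.69 in replicate 1, within the 8.57 to 11.06 of the 15 WT arrays of other days. Whether these 2 arrays hold WT RNA was not tested. The main counts of members and some named differences that use WT D14 are given also with replicate 1 alone, whose spread is then taken from the other groups. Other results use all 3 WT D14 arrays. Among them are the counts of marker and pathway lists, the days of low and high points, and the counts on 6 of 6 days. The Rag1 probe read 4.40 to 4.90 in RAG1-/- arrays and 4.34 to 6.80 in WT arrays, with its position relative to the deleted part not given, so it does not check the genotype. Although the methods state that soft tissue was removed, 12 of 12 skeletal muscle markers (among them Ckm, Acta1 and Myh4) passed the filter, with a mean of 12.42 to 13.20 over the 6 RAG1-/- groups and of 11.67 to 13.55 over the 6 WT groups. The brown adipocyte markers Ucp1 and Dio2 and the T cell markers Cd3e, Cd3g, Cd3d and Lck were below the filter. Of the same lists, Cidea (mean 4.77) and Cd2 (4.76) passed near the floor. Cidea was called higher in RAG1-/- at D7 (0.89) and Cd2 lower at D28 (-0.80).

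The promoters of 4 genes are shown, because the heart and muscle forms Cox7a1 and Cox8b and the ubiquitous form Cox6a1 moved in opposite directions in RAG1-/- callus at D21, with Cox7a2 as the ubiquitous counterpart of Cox7a1. Each sequence is RefSeq, GRCm38.p6, 5′ to 3′ on the gene's strand, and runs from 250 bases before to 50 bases after the start. Capitals mark matches on either strand to the motif of the nuclear respiratory factor NRF1, which is GCGCA and GCGC with any base between them, or to CCGGAA (ETS factors such as GABPA). Cox7a1 is at chr7:30183921-30184220 on the + strand, Cox8b at chr7:140900397-140900696 on the - strand, Cox7a2 at chr9:79759804-79760103 on the - strand and Cox6a1 at chr5:115348909-115349208 on the - strand.
Cox7a1: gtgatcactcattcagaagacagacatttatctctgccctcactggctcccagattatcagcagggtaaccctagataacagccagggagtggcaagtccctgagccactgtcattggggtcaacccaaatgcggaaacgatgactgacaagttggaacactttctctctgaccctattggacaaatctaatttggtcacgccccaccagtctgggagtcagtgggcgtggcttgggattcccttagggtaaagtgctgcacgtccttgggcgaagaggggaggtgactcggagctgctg
Cox8b: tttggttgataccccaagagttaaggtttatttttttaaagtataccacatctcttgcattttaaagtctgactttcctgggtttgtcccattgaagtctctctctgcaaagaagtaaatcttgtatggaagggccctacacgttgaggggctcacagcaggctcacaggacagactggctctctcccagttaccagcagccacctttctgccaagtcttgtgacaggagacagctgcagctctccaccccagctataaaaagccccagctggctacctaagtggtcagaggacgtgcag
Cox7a2: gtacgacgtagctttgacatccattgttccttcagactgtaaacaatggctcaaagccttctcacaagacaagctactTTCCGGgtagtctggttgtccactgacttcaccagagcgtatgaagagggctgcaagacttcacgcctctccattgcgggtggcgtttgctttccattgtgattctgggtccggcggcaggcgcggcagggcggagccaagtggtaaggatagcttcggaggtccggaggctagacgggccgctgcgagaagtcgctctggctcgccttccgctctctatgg
Cox6a1: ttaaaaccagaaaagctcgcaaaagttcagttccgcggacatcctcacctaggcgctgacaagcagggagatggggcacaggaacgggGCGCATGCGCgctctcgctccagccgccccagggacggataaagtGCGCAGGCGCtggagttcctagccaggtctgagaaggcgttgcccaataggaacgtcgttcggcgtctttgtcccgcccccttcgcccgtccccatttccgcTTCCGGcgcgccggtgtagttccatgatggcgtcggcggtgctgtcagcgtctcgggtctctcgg
Of the 77 genes, 63 had promoter entries, with 69 promoters. The NRF1 motif stood in 21.7% of these 69 against 4.6% of all 32851 promoters of the table, in 14 genes. CCGGAA stood in 37.7% against 14.9%, in 25 genes. AANATGGCG (YY1) stood in 17.4% against 2.38%, in 11 genes, and TCAAGGTCA (estrogen-related receptors) in 2.9% against 0.423%, in 2 genes. Cox6a1 held the NRF1 motif and CCGGAA, Cox7a2 held CCGGAA, and Cox7a1 and Cox8b held none of the 4. Of the other complex IV genes with a promoter, Cox6b1 held CCGGAA. Cox5a, Cox5b, Cox6b2, Cox7a2l, Cox7b and Cox7b2 held none of the 4 either, so a lack of them was not particular to the muscle forms. A match to these letters is a description of the sequence and not a bound site.

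Over the course of healing the 2 genotypes had their low points at different times. The median of the 69 genes stood at 10.39 ± 0.05 at D0, 10.07 ± 0.17 at D3, 10.09 ± 0.07 at D7, 10.31 ± 0.12 at D14, 9.63 ± 0.05 at D21 and 10.03 ± 0.04 at D28 in RAG1-/-, against 10.53 ± 0.11, 8.79 ± 0.06, 8.80 ± 0.20, 10.08 ± 0.20, 10.19 ± 0.04 and 10.63 ± 0.09 in WT (SD, n = 3 arrays). WT D14 replicate 1 stood at 10.30. The lowest RAG1-/- mean was at D21 for 44 of the 69 genes, and the lowest WT mean was at D3 or D7 for 56. The highest WT mean was at D28 for 35 genes. The shares of all tested genes with their low or high points at these days were not taken. The skeletal muscle markers had means of 13.13, 12.78, 12.86, 13.20, 12.42 and 12.97 at D0 to D28 in RAG1-/- and of 13.30, 11.67, 11.96, 13.15, 13.48 and 13.55 in WT, with their low points at D21 in RAG1-/- and at D3 in WT. The part of muscle content in the results was not tested.

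**Figure D1:**
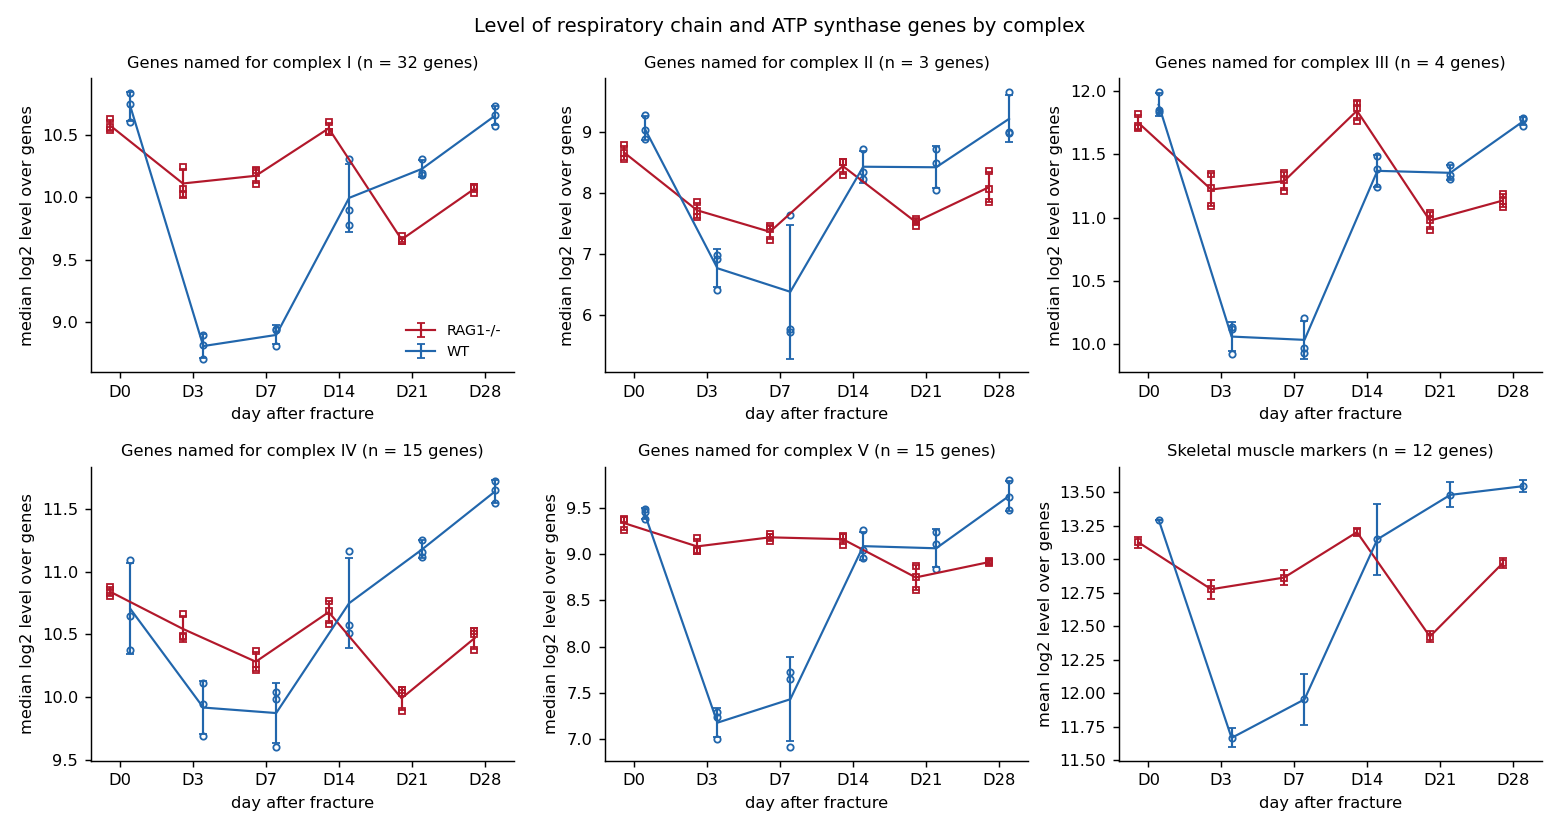
Median log2 level of the tested member genes of each complex by day (n = 3 arrays per group, lines through the means, bars SD), with the mean of the 12 skeletal muscle markers in the last panel. Complex I stood at 9.66 in RAG1-/- at D21 against 10.23 in WT, and at 10.11 in RAG1-/- at D3 against 8.80 in WT. Replicates 2 and 3 of WT D14 were nearer to RAG1-/- D21 arrays than to replicate 1.

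In intact bone (D0), few members differed between the genotypes. In RAG1-/-, 3 genes were higher and 7 lower, against 12.8% of all tested genes higher and 7.39% lower. The median difference was -0.16, against 0.05 over all genes. Cox7a1, the heart and muscle form of a complex IV subunit, read 11.11, 11.13 and 11.10 in RAG1-/- and 12.04, 12.09 and 12.02 in WT. Groups did not overlap, and the difference was -0.93 ± 0.19 (SE, adjusted p = 0.000493). Also lower were Sdhc, a membrane anchor of complex II (-0.91), and Atp5f1 (-0.81) and Atp5h (-0.76), subunits of the stalk of the ATP synthase, of which Atp5f1 was no longer called without 1 of 5 of the 6 arrays (-0.86 to -0.74). Higher were Cox4nb (1.35), Atp5o, the oligomycin sensitivity subunit of the ATP synthase (0.95), and Ndufa3, an accessory subunit of complex I (0.60). WT arrays of Cox4nb were spread (6.49, 5.86 and 4.73, against 7.00, 7.12 and 7.02 in RAG1-/-), and Atp5o reached the floor in WT (4.98, 5.28 and 4.58, against 5.89, 5.79 and 6.01 in RAG1-/-). The heart and muscle forms Cox6a2 and Cox8b were not lower in RAG1-/- and not called. Cox6a2 read 14.13, 14.19 and 14.13 in RAG1-/- and 13.92, 13.75 and 13.83 in WT. Cox8b read 12.58, 12.51 and 12.51 in RAG1-/- and 12.23, 12.40 and 12.39 in WT. Of the 12 muscle markers, 1 was higher and 4 were lower (median -0.37).

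At D3 and D7 the respiratory chain was mostly higher in RAG1-/- than in WT callus. At D3, 39 of 69 genes were higher (25 by over 2-fold) and 8 lower in RAG1-/-, against 26.1% of all tested genes higher and 23.5% lower. At D7, 38 were higher (26 by over 2-fold) and 9 lower, against 27.2% and 21.4%. The median differences were 0.68 and 0.50, against -0.05 and -0.01 over all genes. At both days 36 genes were higher and 6 were lower, and the share of all genes called alike at both days was not taken. The 6 lower genes were Cox4i1, Cox6b2, Ndufb8, Ndufv2, Cox4nb and Ndufaf1, and the last pair are not subunits. By complex, higher and lower at D3 were 17 and 5 of 32 for complex I, 1 and 0 of 3 for complex II, 3 and 0 of 4 for complex III, 6 and 3 of 15 for complex IV and 12 and 0 of 15 for the ATP synthase.

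Several of the largest differences were of genes that approached the floor in WT callus. Atp5j, a stalk subunit of the ATP synthase, read 10.83, 11.00 and 11.24 in RAG1-/- and 6.53, 7.00 and 7.12 in WT at D3, and 10.07, 10.26 and 10.47 in RAG1-/- and 4.67, 6.95 and 4.90 in WT at D7. No RAG1-/- array came near a WT array at either day. The differences were 4.14 ± 0.31 (SE, adjusted p = 9.08e-12) at D3 and 4.76 ± 0.31 (SE, adjusted p = 6.57e-13) at D7. Ndufc2, an accessory subunit of complex I, read 9.51, 9.65 and 9.73 in RAG1-/- and 4.65, 4.63 and 7.17 in WT at D3. Its difference was 4.15 ± 0.40 (SE, adjusted p = 1.19e-09), although the WT arrays were spread over more than 2 units. Ndufa6 (3.07 at D3) and Ndufb6 (3.05 at D3 and 3.63 at D7), both accessory subunits of complex I, were also over 3 units higher. These sizes are of the brightest probes. The dimmer second probe of Atp5j (mean 5.46) differed by 1.32 at D3 and 0.82 at D7. That of Ndufb6 (mean 5.08) differed by 0.27 at D3 and 0.88 at D7.

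Genes that stayed well above the floor in WT differed as well. Atp5b, the catalytic beta subunit of the ATP synthase, read 13.96, 14.13 and 13.96 in RAG1-/- and 11.41, 11.49 and 11.48 in WT at D3, a difference of 2.56 ± 0.11 (SE, adjusted p = 2.32e-17). Atp5a1, the alpha subunit that forms the catalytic ring with it, did not follow: its difference was -0.25 (adjusted p = 0.267) at D3, and it was lower by limma at D7 (-0.98). A list of 17 tested central subunits took in the core of complex I, the 3 of complex II, Uqcrc1, Uqcrc2, Cox4i1, Cox5a, Cox5b and the alpha, beta and gamma subunits of the ATP synthase, not all of which carry a cofactor or the catalysis. Of these 17, 10 were higher and 2 lower at D3, and 10 higher and 4 lower at D7. Among the lower ones, Cox4i1, the ubiquitous form of complex IV subunit 4, had 12.19, 11.89 and 12.12 in RAG1-/- and 12.81, 12.48 and 12.93 in WT at D3 (-0.68, adjusted p = 0.000462), and -0.92 at D7. Ndufv2, a core subunit at the NADH end of complex I, was at -0.64 and -0.96. Cox6b2, known as the testis form of a complex IV subunit, read 6.07, 5.47 and 5.35 in RAG1-/- and 8.72, 8.75 and 8.68 in WT at D3 (-3.09 ± 0.44 SE, adjusted p = 1.04e-06) and differed by -2.48 at D7, while the ubiquitous form Cox6b1 was higher by 0.48 and 0.49.

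**Figure D2:**
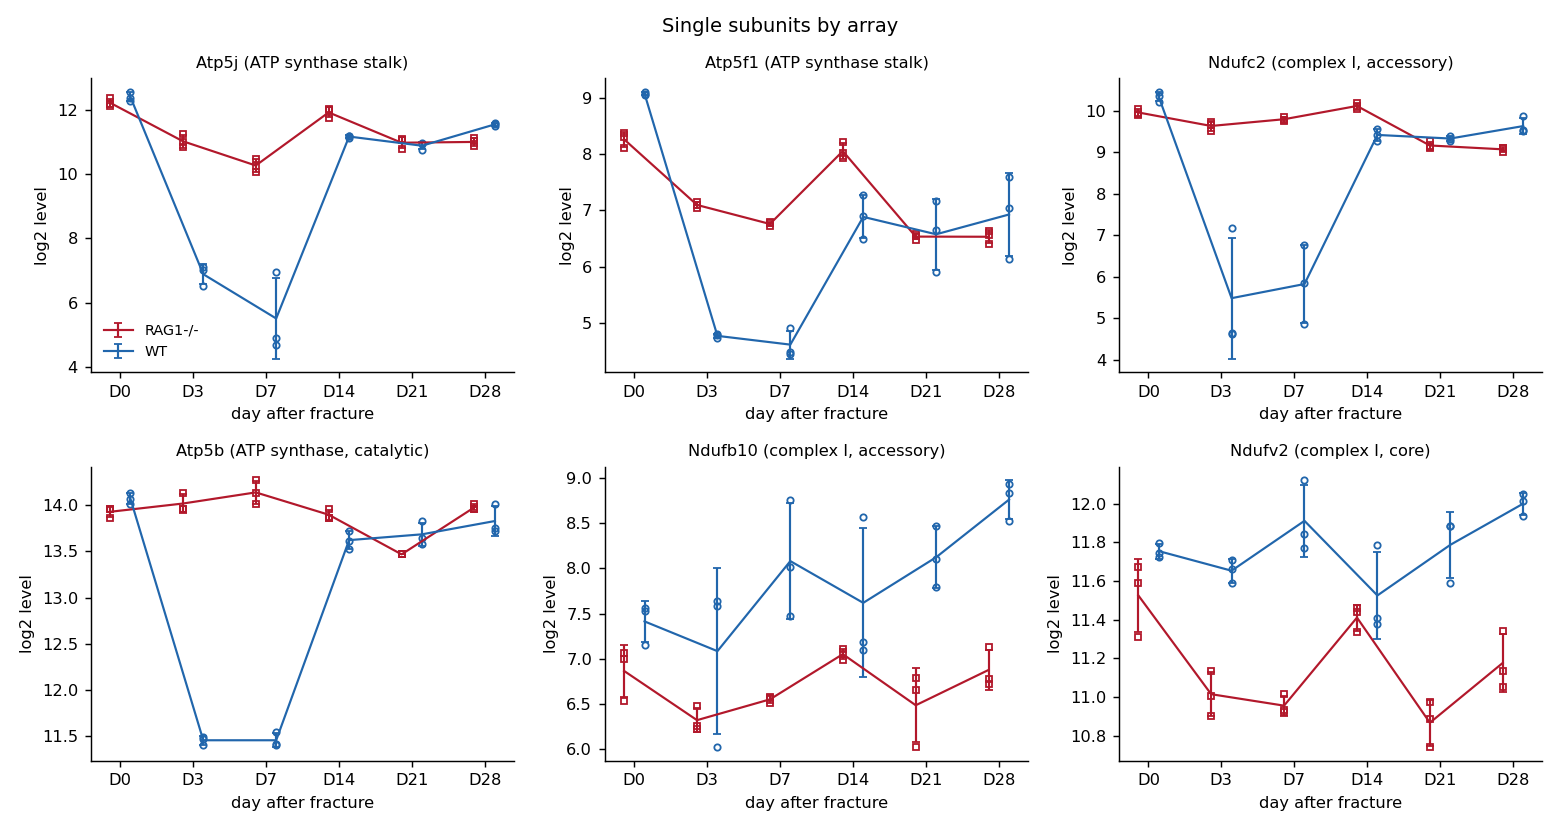
Log2 level of 6 subunits by day, each by its brightest probe (points are arrays, n = 3 per group, lines through the means, bars SD). Atp5j, Ndufc2 and Atp5b were 2.56 to 4.15 higher in RAG1-/- than in WT at D3, while Ndufb10 and Ndufv2 had lower RAG1-/- than WT means on all 6 days.

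How large these early differences were depended on the probe. Of the 69 genes, 11 had several probes above the filter, and the differences of their probes lay a median of 1.14 apart at D3 and 1.71 apart at D7, against 0.21 at D21. Apart by over 1 unit were 6 of the 11 genes at D3, 7 at D7, 0 at D14, 2 at D21 and 4 at D28, where the median was 0.395. Ndufs4, an accessory subunit of complex I, had 4 such probes. At D7 the brightest read 8.58, 8.63 and 8.80 in RAG1-/- and 8.73, 8.95 and 9.63 in WT, and another read 8.07, 7.66 and 7.85 in RAG1-/- and 4.73, 4.71 and 4.80 in WT. The 4 probes thus differed by -0.43, 2.67, -1.31 and 3.11. The 2 Cox4nb probes had opposite signs at D3 (-0.92 and 2.69) and D7 (-1.05 and 2.47), and the second was near the floor in WT at both. Ndufa8 differed by 0.62 and 4.0 at D3. For the change since D0, the probes of these 11 genes lay a median of 0.21 and 0.35 apart in RAG1-/- at D3 and D7. In WT they lay 1.66 and 1.49 apart. Apart by over 1 unit were 0 genes in RAG1-/- at either day, and 7 at D3 and 8 at D7 in WT. Probe sequences are not used here, and why probes of a gene disagreed was not tested. The probes of Cox6a1 agreed, with 2.10 and 1.86 at D3.

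**Figure D3:**
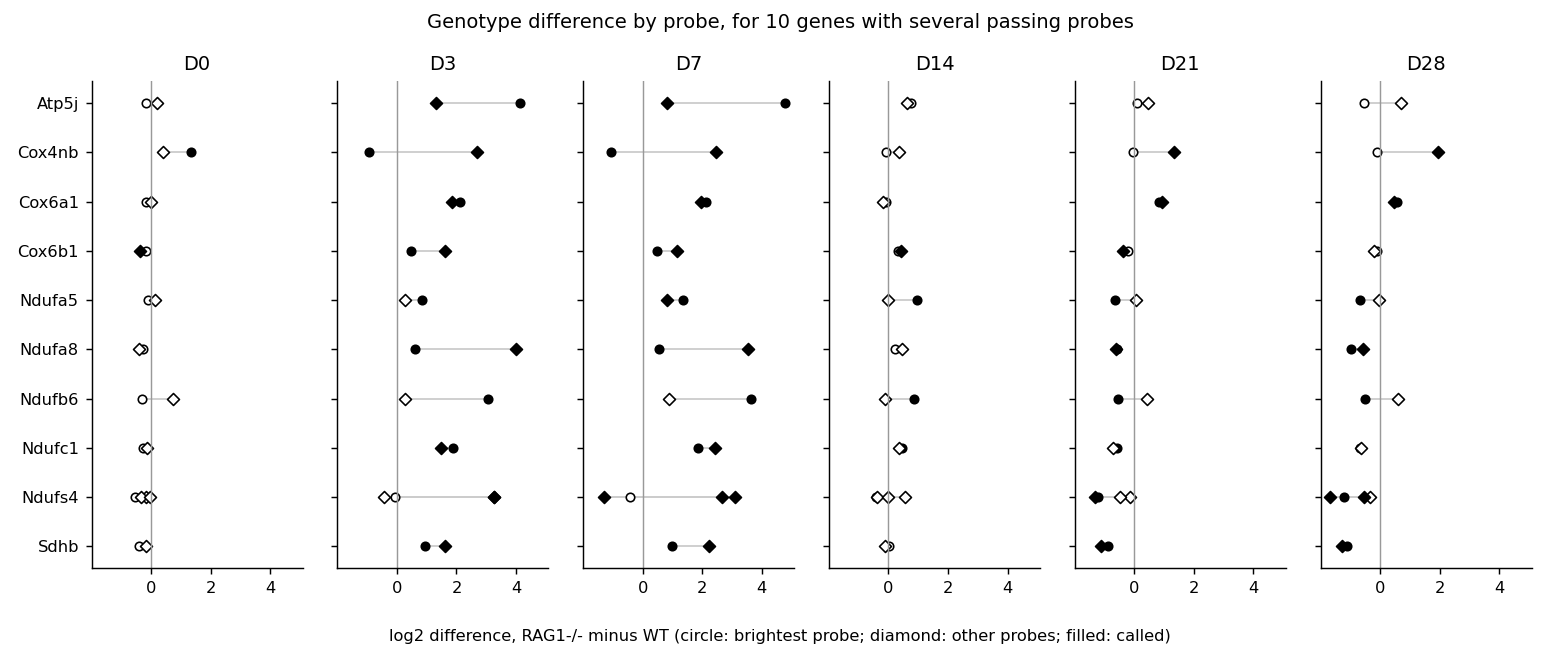
Log2 difference of RAG1-/- minus WT for each passing probe of 10 of the 11 genes with several, by day (circles are the brightest probe, diamonds the others, filled where called). Probes of Ndufs4, Cox4nb and Ndufa8 lay over 3 units apart at D3, and those of Cox6a1 0.25 apart.

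At D14, 12 of 69 genes were higher and 1 lower in RAG1-/-, against 2.65% of all tested genes higher and 2% lower, with a median difference of 0.15 against 0.00 over all genes. With replicate 1 as the only WT D14 array, 9 were higher and 5 lower, and the median difference was -0.06, so that its direction turned. In the fit of all arrays the higher genes were spread over complex I (7), complex III (2), complex IV (1) and the ATP synthase (2). Atp5f1 was 1.17 higher, Ndufa5, an accessory subunit of complex I, 0.97 and Ndufb6 0.84, and Atp5d, the delta subunit of the ATP synthase, was 0.53 lower on the log2 scale. Against replicate 1 alone the difference was 1.55 for Atp5f1, 0.61 for Ndufa5, 0.85 for Ndufb6 and -0.94 for Atp5d. It was -1.52 for Ndufb10 and -0.72 for Ndufa7, accessory subunits of complex I. For the central subunits Ndufv1 and Uqcrc2 it was -0.67 and 0.79. Atp5f1 read 8.21, 8.01 and 7.93 in RAG1-/- and 6.50, 7.27 and 6.89 in WT. These groups did not overlap, but the WT arrays were not alike at this day. Cox7a1, the complex IV gene called, read 11.70, 11.70 and 11.63 in RAG1-/- and 11.78, 10.57 and 10.50 in WT (0.73, adjusted p = 0.0191), and its call and that of Atp5d were lost when single arrays were left out, with differences of 0.50 to 1.14 for Cox7a1 and of -0.63 to -0.32 for Atp5d. Against replicate 1 alone Cox7a1 was at -0.10 (adjusted p = 0.811). The median of the 69 genes was 10.30, 10.03 and 9.91 in the WT arrays. The muscle markers averaged 13.45, 13.01 and 12.98 in these arrays. Without WT D14 replicate 1 the count of genes called was 26, and without RAG1-/- D14 replicate 1 or replicate 3 it was 7 or 8.

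At D21 and D28 the direction turned. At D21, 41 of 69 genes were lower (14 by over 2-fold) and 3 higher in RAG1-/-, against 9.87% of all tested genes lower and 14.7% higher. At D28, 38 were lower (11 by over 2-fold) and 1 higher, against 9.91% and 19.5%. The median differences were -0.59 and -0.54, against 0.03 and 0.08 over all genes. At both days 34 genes were lower, and 17 of them had been higher at D3 and D7. The shares of all genes with these patterns were not taken. Complex I had 23 of 32 genes lower at D21 and 20 at D28, complex II 3 and 2 of 3, complex III 3 and 4 of 4, complex IV 7 and 7 of 15 and the ATP synthase 5 and 5 of 15. Of the 17 central subunits 14 were lower at D21 and 13 at D28, and 0 were higher. At D21, 11 of the 12 muscle markers were also lower and 0 higher, with a median difference of -1.14, and at D28 7 were lower and 1 higher (-0.67). The cartilage markers (5 tested) and osteoblast markers (8 tested) had 4 and 7 genes higher at D21, and 0 lower. The cartilage markers also had 4 higher and 0 lower at D0, 2 and 1 at D3 and 3 and 1 at D7. At D14 and D28 they had 0 and 0, and 3 and 1. The osteoblast markers had 5 higher and 2 lower at D0, 3 and 4 at D3 and 3 and 3 at D7. At D14 and D28 these had 0 and 2, and 4 and 1.

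Cox7a1 showed the largest difference at D21. It read 9.50, 9.63 and 9.67 in RAG1-/- and 11.81, 11.76 and 11.74 in WT, and the difference was -2.17 ± 0.19 (SE, adjusted p = 2.11e-09). Uqcrc1, a core protein of complex III, read 9.93, 9.96 and 10.08 in RAG1-/- and 11.59, 11.28 and 11.43 in WT (-1.44 ± 0.20 SE, adjusted p = 5.3e-06). In neither did the groups overlap, and Uqcrc1 was at -1.07 at D28. Ndufb10 read 6.01, 6.65 and 6.78 in RAG1-/- and 8.11, 7.79 and 8.48 in WT at D21, and 6.78, 7.13 and 6.72 in RAG1-/- and 8.53, 8.83 and 8.93 in WT at D28. The differences were -1.64 ± 0.36 (SE, adjusted p = 0.00107) and -1.89 ± 0.36 (SE, adjusted p = 0.000217), and no other member differed more at D28. Sdhc read 10.29, 10.22 and 10.30 in RAG1-/- and 11.65, 11.74 and 11.69 in WT at D28 (-1.43 ± 0.17 SE, adjusted p = 6.24e-07). Ndufb5 (-1.34 at D21) and Ndufb9 (-1.40 at D28), accessory subunits of complex I, and Atp5h (-1.37 at D28) came next, and leaving out single arrays ended the call of Ndufb9 in 4 of 6 fits (-1.67 to -1.25).

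Other central subunits at D21 were Ndufs7 (-1.23), Ndufv1 (-1.13), Ndufs8 (-1.0), Atp5a1 (-0.88), Cox5a (-0.83), Atp5c1 (-0.72) and Cox5b (-0.63), all lower in RAG1-/-. Ndufs3 (-0.37) and Atp5b (-0.22) were among the central subunits not called. The 3 tested complex II genes were lower at D21, with Sdhb at -0.90, Sdhc at -1.18 and Sdhd at -0.80. At D28 Sdhd was at 0.10 (adjusted p = 0.833). With 1 array left out, Sdhb was between -1.09 and -0.74 at D21 and was called in 1 of 6 such fits, and Sdhd was between -1.01 and -0.50 and was called in all but 3.

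**Figure D4:**
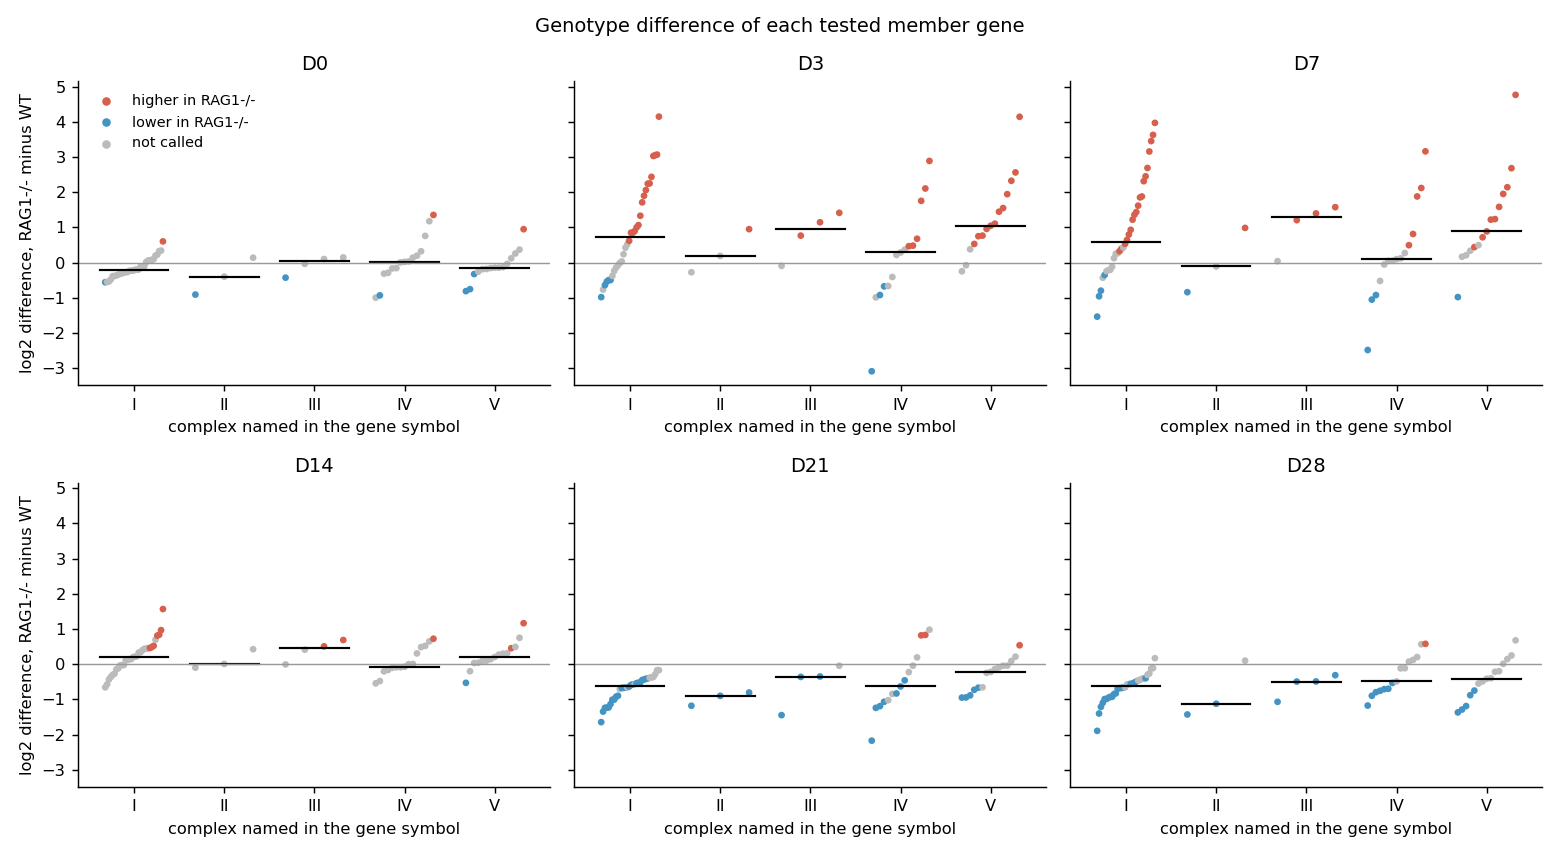
Log2 difference of RAG1-/- minus WT for each of the 69 tested genes, by complex and day (points are genes, red where called higher, blue where called lower and grey where not called, bars are medians of a complex). The medians over the genes were 0.68 at D3, 0.50 at D7, -0.59 at D21 and -0.54 at D28.

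In complex IV the forms of the Cox6a subunit went in opposite directions at D21 and D28, and no other ubiquitous form was called higher. The 3 heart and muscle forms Cox6a2, Cox7a1 and Cox8b were lower in RAG1-/-, by limma, at D21 (-1.07, -2.17 and -1.24) and at D28 (-0.53, -0.90 and -0.75), and that of Cox7a1 at D28 was close to its -0.93 at D0. Cox8b read 10.93, 10.98 and 10.99 in RAG1-/- and 12.29, 12.14 and 12.18 in WT at D21. Cox6a2 read 12.48, 12.58 and 12.56 in RAG1-/- and 13.64, 13.58 and 13.58 in WT at D21. Cox6a1, the ubiquitous counterpart of Cox6a2, read 10.48, 10.55 and 10.67 in RAG1-/- and 9.83, 9.62 and 9.75 in WT, so that the direction was opposite, at 0.83 ± 0.15 (SE, adjusted p = 0.000168), and at D28 it was 0.58 ± 0.15 (SE, adjusted p = 0.00488). Its second probe differed by 0.95 at D21. Cox7a2, the ubiquitous counterpart of Cox7a1, had -0.84 at D21 with an adjusted p of 0.0734, and Cox6b1 was at -0.22 at D21 and -0.11 at D28 and not called. Cox4i2, the form of subunit 4 known from lung, was called at no day, although at D0 it read 6.35, 6.38 and 6.28 in RAG1-/- and 4.49, 5.46 and 5.54 in WT (1.18 ± 0.45 SE, adjusted p = 0.0646), and these groups did not overlap. Cox4i1 was lower at D21 (-0.46) and D28 (-0.71). Cox7a2l was higher at D21 (0.82). Atp5o was called higher at D21 too, at 4.83, 4.90 and 4.84 in RAG1-/- and 4.30, 4.40 and 4.25 in WT, all WT arrays being below the floor, so its difference has no exact size. With 1 array left out, the calls at D21 of Cox4i1 (-0.53 to -0.36), Cox7a2l (0.61 to 1.08) and Atp5o were lost in 4, 4 and 6 of 6 fits, and that of Cox6a2 at D28 was lost without RAG1-/- D28 replicate 3 (adjusted p = 0.062). Centring each array on its own median ended the call of Cox6a1 at D28 (0.39, adjusted p = 0.074). Of the forms of ATP synthase subunit c, Atp5g2 was lower at D21 (-0.66), and Atp5g3 was at -0.04.

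**Figure D5:**
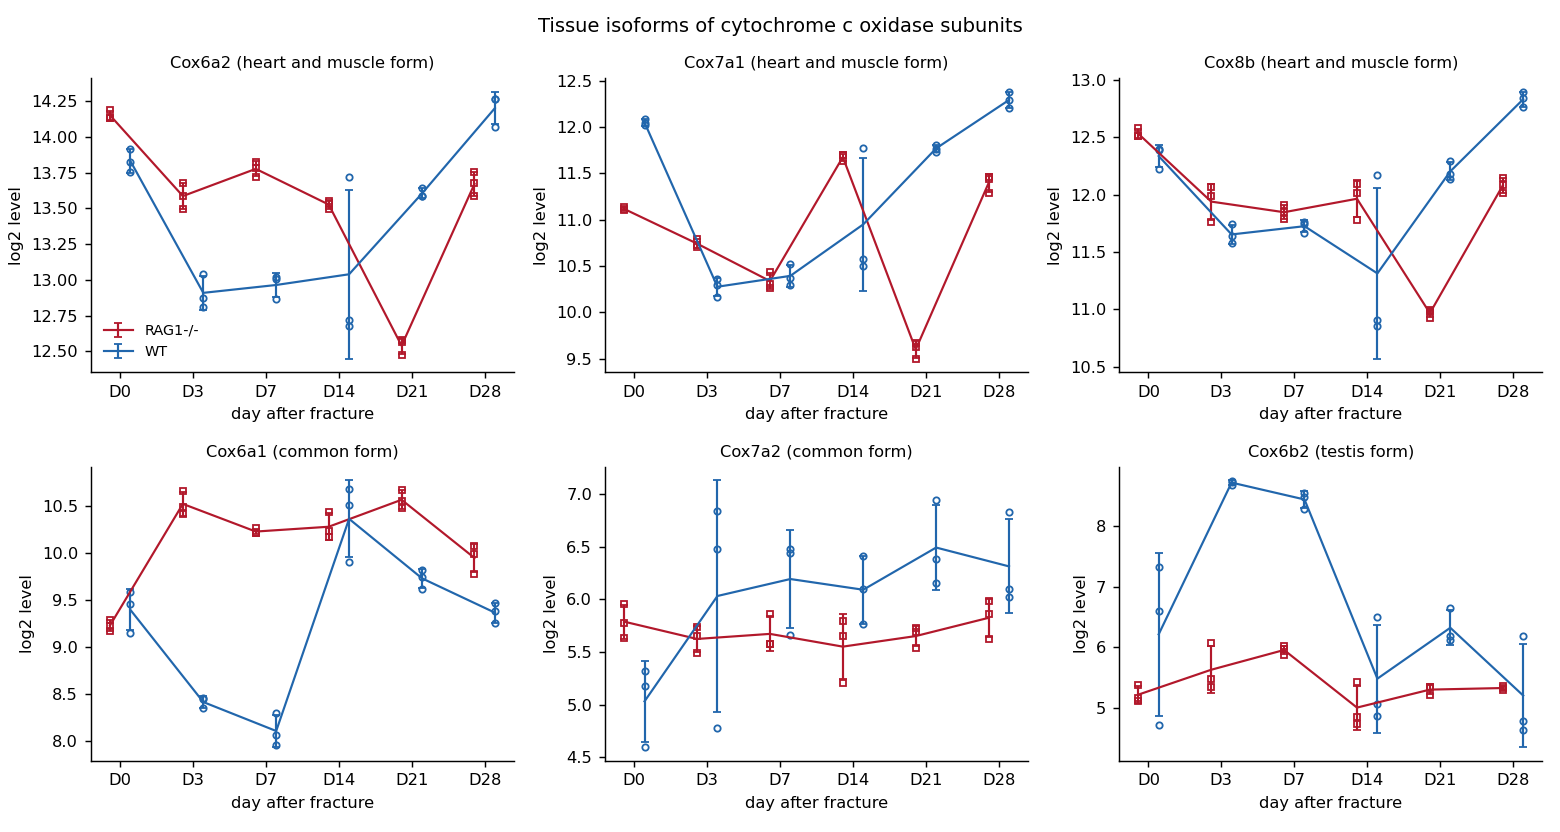
Log2 level of the forms of complex IV subunits by day (points are arrays, n = 3 per group, lines through the means, bars SD). Cox7a1, Cox8b and Cox6a2 were lower in RAG1-/- than in WT at D21 (-2.17, -1.24 and -1.07), while Cox6a1 was higher (0.83).

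Each genotype was then set against its own intact bone. The comparisons of a genotype share its D0 pool. In RAG1-/- callus, 25 of 69 genes were lower and 1 higher at D3, against 6.36% of all tested genes lower and 5.82% higher, 21 lower and 2 higher at D7 (5.7% and 6.75% of all genes), 7 lower and 5 higher at D14 (7.02% and 7.08%), 41 lower and 1 higher at D21 (10% and 10.3%), and 20 lower and 2 higher at D28 (6.7% and 7.67%). The median change was -0.64 at D21 and -0.24 at D28. In WT callus, 48 genes were lower and 5 higher at D3, against 21% of all genes lower and 24% higher, 46 lower and 7 higher at D7 (21% and 23.2%), 25 lower and 3 higher at D14 (11.8% and 16.6%), 21 lower and 6 higher at D21 (11.3% and 12.5%), and 10 lower and 20 higher at D28 (13.6% and 11.8%). The median changes were -0.98 at D3 and 0.24 at D28. Centring each array on its own median gave 31 genes higher and 5 lower at D28 in WT. With replicate 1 as the only WT D14 array, 15 genes were lower and 7 higher at D14 in WT. Without RAG1-/- D3 replicate 2, the count at D3 in RAG1-/- was 17 in place of 26.

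Cox6a1 was the gene that rose most in RAG1-/- callus: it read 9.29, 9.23 and 9.18 at D0 and had means of 10.52 at D3, 10.23 at D7, 10.28 at D14, 10.57 at D21 and 9.95 at D28, a rise of 1.29 ± 0.15 at D3 and of 1.34 ± 0.15 at D21 (SE, adjusted p = 6.03e-07 and 1.18e-07). In WT callus it had means of 8.42 at D3 and 8.11 at D7, against 9.40 at D0, and of 10.36 at D14 (9.90 in replicate 1). It thus changed in opposite directions in the 2 genotypes at D3 and D7. Cox6a2 fell by 1.61 in RAG1-/- at D21. Cox7a1 changed from D0 by -1.52 in RAG1-/- at D21 and by -1.77 in WT at D3, and at D28 it averaged 11.40 in RAG1-/- and 12.29 in WT. Atp5j changed by -1.20 in RAG1-/- at D3 and by -5.52 in WT, and Atp5f1 was lower than at D0 on every day in both genotypes but for RAG1-/- at D14 (-0.21, not called).

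The difference between genotypes in the change since D0 was tested as well, which removes what differed in intact bone. A gene counted here as higher where its change was higher in RAG1-/- than in WT. At D3, 37 genes were higher and 5 lower (15.7% and 15.8% of all genes), and at D7, 33 and 6 (14.9% and 13.6%). At D14, 15 were higher and 2 lower (6.63% and 9.23%), or 11 and 5 with replicate 1 as the only WT D14 array, at D21, 1 and 20 (6% and 6.72%), and at D28, 1 and 21 (8.05% and 5.15%). The 1 gene higher at D21 was Cox6a1 (1.00 ± 0.22 SE, adjusted p = 0.0018), and it was Cox6a1 again at D28 (0.75).

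Over the 6 days together, the pools give 6 pairs from separate mice, and this is the only test here with replicates over mice. The test fits 1 difference for all 6 days, so opposite differences at early and late days cancel in it. It called 1 of 69 genes, Ndufb10 (-1.16 ± 0.23 SE, adjusted p = 0.0457), lower in RAG1-/- on 6 of 6 days, against 1.47% of all genes called lower and 3.02% called higher. Without D0, D3, D7, D21 or D28 none was called, and without D14 5 were. With replicate 1 as the only WT D14 array 8 were, 1 higher and 7 lower, among them Ndufb10 (-1.32), Ndufv2 (-0.66) and Cox6b2 (-1.49). At an unadjusted p under 0.05 there were 15 (5 higher and 10 lower), 21.7% of the members against 33.1% of all genes. The next were Ndufv2 (-0.61, adjusted p = 0.067), lower on 6 of 6 days, and Cox6b2 (-1.32, adjusted p = 0.0688), lower on 5 of 6. Of the 69 genes, 7 were lower on all 6 days, against 8.01% of all genes, and 1, Atp5o, was higher, against 9.89%. The median difference over the genes was -0.03, against 0.02 over all genes.

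Neighbouring mitochondrial pathways were compared between the genotypes in the same fit. Of all tested genes, 12.8% were higher and 7.39% lower at D0, 26.1% and 23.5% at D3, and 27.2% and 21.4% at D7. At D14 these shares were 2.65% and 2%, at D21 14.7% and 9.87%, and at D28 19.5% and 9.91%. They stand also beside the counts of regulators and cell markers below. Of 12 tested genes of the tricarboxylic acid cycle, which feeds the chain with electrons, 6 were higher and 1 lower in RAG1-/- at D3, 7 and 0 at D7, 3 and 0 at D14, 0 and 8 at D21 and 0 and 9 at D28. Mdh2, malate dehydrogenase, was at 2.68 at D3 and -1.69 at D21, and Idh3a, a subunit of isocitrate dehydrogenase, at 1.55 and -1.56. Of 13 genes of cytochrome c, cytochrome c1 and the assembly of complexes III and IV, 6 were higher and 1 lower at D3, 6 and 1 at D7, 2 and 0 at D14, 0 and 3 at D21 and 2 and 4 at D28. Of 5 carriers and porins, 4 were higher and 1 lower at D3 and again at D7, 1 and 2 at D21 and 0 and 3 at D28. Slc25a5, an ATP/ADP carrier, was higher at D21 (1.07), and Vdac2, a porin of the outer membrane, was lower at both D3 (-0.95) and D21 (-0.77). At D0 these lists had 0 and 3, 1 and 1, and 0 and 1 genes higher and lower.

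The regulators of mitochondrial biogenesis were mostly not higher at D3. Of 8 tested, 0 were higher and 3 lower in RAG1-/- at D0, 1 and 5 at D3, 2 and 2 at D7, 1 and 0 at D14, 0 and 2 at D21 and 1 and 2 at D28. Nrf1, which encodes nuclear respiratory factor 1, was at -2.31 at D3 and Esrra, the estrogen-related receptor alpha, at -1.28 at D3 and -1.49 at D28, both lower in RAG1-/-. Ppargc1a, the coactivator that drives mitochondrial biogenesis in muscle, was not called at any day (-0.25 at D3 and -0.54 at D28). Its mean over all arrays was 4.88, near the floor, so the lack of a call says little. Gabpa (4.65) and Yy1 (4.69), whose motifs are counted above, were below the filter. Tfam, which packages mitochondrial DNA and acts in its transcription, was higher at D3 (0.95) and D28 (0.77).

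Markers of other cells also differed between the genotypes, on days that varied with the cell type. The 7 erythroid markers tested had group means of 6.05 to 7.39 in RAG1-/- and 8.05 to 10.99 in WT, where 8.05 was that of D14. In RAG1-/-, 7 of 7 were lower at D0, D3 and D7 and 2 at D14. At D21 (median -3.38) and D28 (median -1.81) 5 were lower, and 0 were higher at any of the 6 days. The 7 neutrophil markers were all lower at D14 (median -1.69), with means of 6.99, 6.88 and 6.99 in RAG1-/- arrays and 9.08, 8.32 and 8.36 in WT arrays, and had 3 higher and 3 lower at D3 and again at D7, 1 and 3 at D21 and 0 and 4 at D28. The 6 macrophage markers had 3 higher and 1 lower at D3, 3 and 0 at D7, 2 and 0 at D21 and 4 and 0 at D28 (median 2.00). The 4 adipocyte markers had 0 higher and 2 lower at D3, 1 and 0 at D7, 0 and 2 at D21 and 3 and 0 at D28 (median 1.55). The 6 osteoclast markers, with group means of 6.77 to 8.83 in RAG1-/- and 7.37 to 9.08 in WT, had 4 lower and 0 higher at D3, 4 and 0 at D7, 0 and 0 at D21 and 4 and 1 at D28. The muscle markers had 7 higher and 1 lower at D3 and 5 and 2 at D7. The part of these cells in the members' differences was not tested.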

How the data were processed

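Callus and intact femur of RAG1-/- and WT mice were measured on 36 arrays, 3 per pool of 5 mice, grouped by the genotype, day and replicate number in the labels. The deposited log2 values were made by the authors, who pre-processed the intensities with beadarray and quantile normalized them with lumi. A further 264 value columns are named by BeadChip position, which the sources used here do not pair with samples, and were not used.

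Probes with a mean above 4.721 over all arrays were tested (12848 of 25697), each gene by its brightest probe (10291 genes). R 4.3.3 with limma 3.58.1 fitted a mean for each of 12 groups to all arrays, with Benjamini-Hochberg adjustment and a residual SD of 0.389. The test over days used pool means with the day as a block. The number of arrays limits the precision, and detection p-values were not used.

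The member genes, the marker and pathway lists and the tests were chosen with earlier results of these data known. Named genes are the central subunits, the tissue forms, up to 4 called genes in each direction at each day whose groups do not overlap, up to 3 against D0, the 3 smallest p over the days, and genes whose probes have called differences of opposite sign. The pathway genes named as examples, Ndufa8 and Ndufb8 were chosen after their values were seen. The values of 1 gene that this rule names are not reported here. Symbols were matched to RefSeq (72 current, 5 older). Alternatives covered the filter, the probe of a gene, array weights, centring, the arrays fitted, the methods' t-test, stricter limits, the replicate number as a block, and each array or day left out. The second probe, WT D14 with replicate 1 alone and the alternatives for changes that differ between genotypes were chosen after seeing the data. The fits were tested on simulated data.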

Additional observations from a re-analysis of the deposited data

Results flagged for a closer look

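The change since D0 differed between the genotypes by limma's test of the difference in 42 member genes at D3, 39 at D7, 17 at D14, 21 at D21 and 22 at D28, and these counts and the genes with the largest such differences are given here. At D3 the change was higher in RAG1-/- by 4.53 for Ndufc2 and differed by -2.27 for Cox4nb, and at D7 by 4.95 for Atp5j and by -2.40 for Cox4nb. At D14 it differed by 1.98 for Atp5f1 and by -1.42 for Cox4nb. At D21 it differed by 1.00 for Cox6a1 and by -1.60 for Cox7a2, and at D28 by 0.75 for Cox6a1 and by -1.47 for Cox4nb, all on the log2 scale. The 3 arrays of Cox4nb in WT at D0 were spread (6.49, 5.86 and 4.73), and each of its differences rests on them. Its second probe read 6.22, 6.35 and 5.46 in these arrays and gave the opposite sign at D3 (2.28), D7 (2.06) and D28 (1.55), all called, and -0.07 at D14, so the direction for Cox4nb is not settled. With replicate 1 as the only WT D14 array the count at D14 was 16. The D0 arrays of Cox7a2 read 5.96, 5.64 and 5.77 in RAG1-/- and 5.32, 5.18 and 4.59 in WT.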

How the results depend on the processing

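Of 359 counts of member genes called under an alternative, 287 were within 1.5 times the count given. Centring each array on its median kept 22 of 22 counts within that range, and the replicate block 21 of 21, with 10, 47, 47, 13, 43 and 41 genes differing between the genotypes at D0, D3, D7, D14, D21 and D28. Same-numbered arrays deviated with a median correlation of -0.003 (-0.0998 to 0.101), so the numbers share no more than a name.

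Counts between the genotypes over 2-fold were, by the methods' t-test with adjustment, 0 at D0, 26 at D3, 29 at D7, 0 at D14, 14 at D21 and 9 at D28, and by limma at an adjusted p under 0.01, 1, 25, 29, 2, 14 and 10. Without the fold limit the methods' t-test gave 16 at D0 and 2 at D14. At D14 array weights gave 42 and the arrays of the 2 groups alone 3. Against D0 in RAG1-/- (D3, D7, D14, D21, D28) the t-test with the fold limit gave 3, 4, 2, 16 and 6 and the stricter limma limits 3, 4, 2, 15 and 6. The t-test alone gave 35 at D7, 27 at D14 and 35 at D28, array weights 47, 45, 36 and 41 at D3, D7, D14 and D28, and the arrays of the 2 groups alone 40, 41, 31 and 37. Against D0 in WT the t-test with the fold limit gave 33, 30, 5, 3 and 1, the stricter limits 35 at D7, 9 at D14, 7 at D21 and 9 at D28, and the t-test alone 14, 16 and 14 at D14, D21 and D28. The arrays of the 2 groups alone gave 13, 15 and 5 there, and array weights 44 at D14 and 9 at D28. Array weights gave 38 and 10 genes whose change to D14 and D28 differed. Over the 6 days, 0 genes were called without the filter, without D0, D3, D7, D21 or D28, or without D3 and D7, 5 without D14, 2 by the mean of a gene's probes, 3 with every probe a feature and 8 with replicate 1 as the only WT D14 array, which gave 14, 22 and 16 genes for the genotype difference, the change in WT and the differing change at D14. The cause of these moves was not tested.

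With 1 array left out, the genotype counts ran from 7 to 11 at D0, 45 to 49 at D3, 43 to 47 at D7, 7 to 26 at D14, and 35 to 39 at both D21 and D28. Against D0 they ran in RAG1-/- from 17 to 21, 16 to 20, 9 to 11, 36 to 39 and 18 to 19 (D3 to D28), and in WT from 51 to 54, 49 to 53, 25 to 41, 21 to 26 and 23 to 29. Changes that differed ran from 38 to 43, 37 to 39, 15 to 25, 16 to 22 and 15 to 23, and the count over the days from 0 to 1.

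Of the named differences that were called, 2779 alternatives kept direction and call, 393 lost the call and 16 turned, all with another probe of the gene but for Cox7a1 at D14 (-0.1005 with replicate 1 as the only WT D14 array). With the second probe, Ndufa5 was at -0.026 at D14 and 0.072 at D21, Ndufb6 at -0.12 at D14, 0.43 at D21 and 0.59 at D28, and Cox4nb at 2.69 at D3 and 2.47 at D7 between the genotypes. The mean of the probes gave 0.037 for Ndufb6 at D28 and 0.88 and 0.71 for Cox4nb at D3 and D7. Against D0, the second probe gave -0.29 for Cox6b1 in RAG1-/- at D7, and -1.51, -1.60, -0.64 and -1.43 for Cox4nb in WT at D3, D7, D21 and D28. Signal over background limits the D3 and D7 differences, since several WT values lie near the floor.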
